A study of Mus musculus with 18 samples.

Results

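The T-cell surface glycoproteins and CD28-family costimulators described here were *Thy1*, *Cd2*, *Cd5*, *Cd6*, *Cd7*, *Cd28*, *Icos*, *Ms4a4b* and *Cd40lg*. They were chosen by gene symbol with their signals in the 6 groups and their differences between treatments already known, so those values are given as a description. The 9 genes had 1 probe set each among the 22206 probe sets of the array, 19572 of which had 1 gene symbol. The arrays measured RNA of splenic T cells that were sorted by flow cytometry. The donors were Foxp3 YFP/cre mice, which make YFP and Cre under control of the Foxp3 locus. Foxp3- CD4+ cells (CD4+ Tconv), CD8+ cells and YFP+ regulatory cells (Treg) were each kept for 24 h in medium with 10 ng/ml IL2. Small extracellular vesicles (sEVs), at 50 ug/ml per the labels, were added to every culture. LME-sEVs came from spleens of leukemic Eμ-TCL1 mice, in which human TCL1 is driven in B cells and a disease like chronic lymphocytic leukemia (CLL) develops, and HCME-sEVs came from pooled spleens of healthy C57BL/6 mice. Each subset had 3 arrays per treatment, 18 in all. No culture without sEVs was among these arrays, the methods list no T-cell receptor stimulus for them, and the labels give no ages. The methods set the amount of sEVs by the content of the spleens, so equal dosing of the treatments is not settled.

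T cells read antigen through the T-cell receptor, and surface glycoproteins tune that signal. CD28 is the main costimulatory receptor of naive T cells and binds CD80 and CD86 on antigen-presenting cells, and ICOS, its inducible relative, binds ICOS ligand. CD40 ligand, which *Cd40lg* encodes, gives help to B cells and dendritic cells through CD40. THY1 is a small protein held in the membrane by a lipid anchor and found on mouse T cells. CD2 binds CD48 in the mouse and strengthens adhesion, CD5 and CD6 are related scavenger-receptor proteins that restrain or adjust receptor signalling, and CD7 is an immunoglobulin-family protein. MS4A4B spans the membrane several times and modulates the activation of mouse T cells. CD5 is also carried by CLL cells, which makes B-cell transcripts a point to check.

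Promoters are shown for *Cd5* and *Ms4a4b*, the members whose start sites were in the RefSeq promoter table used (2 of 9 matched, assembly GRCm38.p6) and which were both lower in CD4+ Tconv on every LME array. Each sequence runs 5′ to 3′ from 250 bases before the start of the gene to 50 bases after it. Capitals mark GGAA or its reverse complement, the core that ETS transcription factors bind, which also lies in the core that NFAT factors bind. *Cd5* was taken from the minus strand of chr19:10738925-10739224 and *Ms4a4b* from the plus strand of chr19:11443308-11443607.
Cd5: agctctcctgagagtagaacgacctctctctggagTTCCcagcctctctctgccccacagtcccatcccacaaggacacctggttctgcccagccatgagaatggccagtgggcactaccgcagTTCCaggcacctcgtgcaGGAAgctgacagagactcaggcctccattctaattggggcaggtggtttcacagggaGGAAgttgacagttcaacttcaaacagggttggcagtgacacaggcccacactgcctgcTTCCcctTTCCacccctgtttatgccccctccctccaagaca
Ms4a4b: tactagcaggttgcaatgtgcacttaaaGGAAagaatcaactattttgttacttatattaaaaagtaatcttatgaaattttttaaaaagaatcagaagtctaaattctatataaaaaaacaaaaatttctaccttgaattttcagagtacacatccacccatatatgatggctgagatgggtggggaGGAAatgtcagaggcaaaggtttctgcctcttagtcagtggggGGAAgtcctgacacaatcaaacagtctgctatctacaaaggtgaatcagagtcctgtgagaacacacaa
Searched on both strands, GGAA occurred 6 times in the *Cd5* promoter and 3 times in that of *Ms4a4b*. It was present in 96.0% of 32851 promoters of the same length, with a median of 3 matches, so its presence does not set these genes apart. The E-box letters CANNTG occurred 2 times in the *Cd5* promoter and 0 times in that of *Ms4a4b*, against a share of 72.3% of promoters with a match. TGTGGT, the RUNX core, was in neither promoter and in 16.8% of all. *Cd5* and *Cd6* are next to each other on chromosome 19 with 0 genes between them, and 21 genes lie between *Cd6* and *Ms4a4b*. *Cd28* and *Icos* lie on chromosome 1 with 1 gene between them, *Ctla4*. The other members are on chromosomes 9 (*Thy1*), 3 (*Cd2*), 11 (*Cd7*) and X (*Cd40lg*).

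Signals are log2 values, on which a difference of 1 is a 2-fold change. Background was set per subset at the 95th percentile of the means of 1429 probe sets for olfactory, vomeronasal and trace amine receptors, which T cells are not expected to use, and it stood at 8.80 in CD4+ Tconv, 8.08 in CD8+ T cells and 7.62 in Treg. Array medians ran from 6.64 to 7.48. The distance from the receptor background of an array to its upper decile of signal was 1.54 to 1.98 on the CD4+ Tconv HCME arrays and 0.73 to 1.15 on the LME arrays, so the LME arrays had the narrower span. The span was 3.39 to 3.99 over the CD8+ arrays and 2.59 to 3.49 over those of Treg. Among the Treg arrays, HCME array 3 was the least like the rest (mean r of 0.926, against 0.951 to 0.955 for the others). *Cd8b1* was at 17.18 in CD8+ T cells against 9.54 in CD4+ Tconv and 9.70 in Treg (HCME means), and the lower values were above background too. *Cd4* was at 10.15 in CD4+ Tconv, 9.76 in Treg and 8.56 in CD8+ T cells, above background in each. *Ikzf2*, a transcription factor of Treg, stood at 11.29 in Treg against 7.52 in CD4+ Tconv. *Foxp3*, also a listed marker, had no probe set with 1 gene symbol and was not read. Of 8 B-cell markers measured, 1 was above background in CD4+ Tconv, 0 in CD8+ T cells and 1 in Treg. Their mean level was 6.85 to 6.92 on HCME and 6.85 to 6.98 on LME arrays of CD4+ Tconv.

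The 9 genes differed in which subset carried the highest signal. Whether the subsets were normalized together is not known, so each order below describes the deposited values. *Thy1* was highest in CD8+ T cells (12.46 to 13.24 over 6 arrays), followed by Treg (9.80 to 11.79) and CD4+ Tconv (7.48 to 9.65), with no overlap between neighbours. *Cd7* had the widest spread, from 14.76 to 15.58 in CD8+ T cells down to 7.86 to 10.67 in CD4+ Tconv and 6.90 to 9.72 in Treg, and its ranges in the lower pair overlapped. *Ms4a4b* was high everywhere, at 15.36 to 16.23 in CD8+ T cells, 14.48 to 15.34 in CD4+ Tconv and 14.32 to 15.59 in Treg. These 3 genes thus had their top signal in CD8+ T cells.
*Icos*, *Cd2*, *Cd6* and *Cd5* were highest in Treg. *Icos* stood at 15.77 to 16.52 there, against 12.38 to 13.22 in CD4+ Tconv and 11.40 to 12.65 in CD8+ T cells. *Cd2* ranged from 13.95 to 15.33 in Treg, from 13.28 to 13.69 in CD8+ T cells and from 11.09 to 12.04 in CD4+ Tconv, and these ranges did not overlap. *Cd6* was at 9.30 to 11.35 in Treg and 8.29 to 9.59 in CD8+ T cells, whereas its 6.26 to 7.01 in CD4+ Tconv was under background on all 6 arrays. *Cd5* was less far apart, and its Treg range (12.98 to 13.82) overlapped that of CD8+ T cells (12.61 to 13.20). *Cd40lg* was the member highest in CD4+ Tconv, at 9.12 to 10.84. It was under background on all 6 arrays of CD8+ T cells (7.17 to 7.58) and above it on 2 of 6 in Treg (6.34 to 7.78), and those subsets could not be ordered. *Cd28* had no order that exceeded its spread, with 9.60 to 12.41 in CD8+ T cells, 10.36 to 12.85 in Treg and 9.54 to 11.17 in CD4+ Tconv. When all 18 arrays were quantile normalized together, a setting added after the data were seen, the HCME means of *Cd5* in CD8+ T cells and CD4+ Tconv changed order (CD8 minus CD4 of 0.55 as deposited and -0.68 after it), as did those of *Cd28* (0.22 and -1.0).

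**Figure D1:**
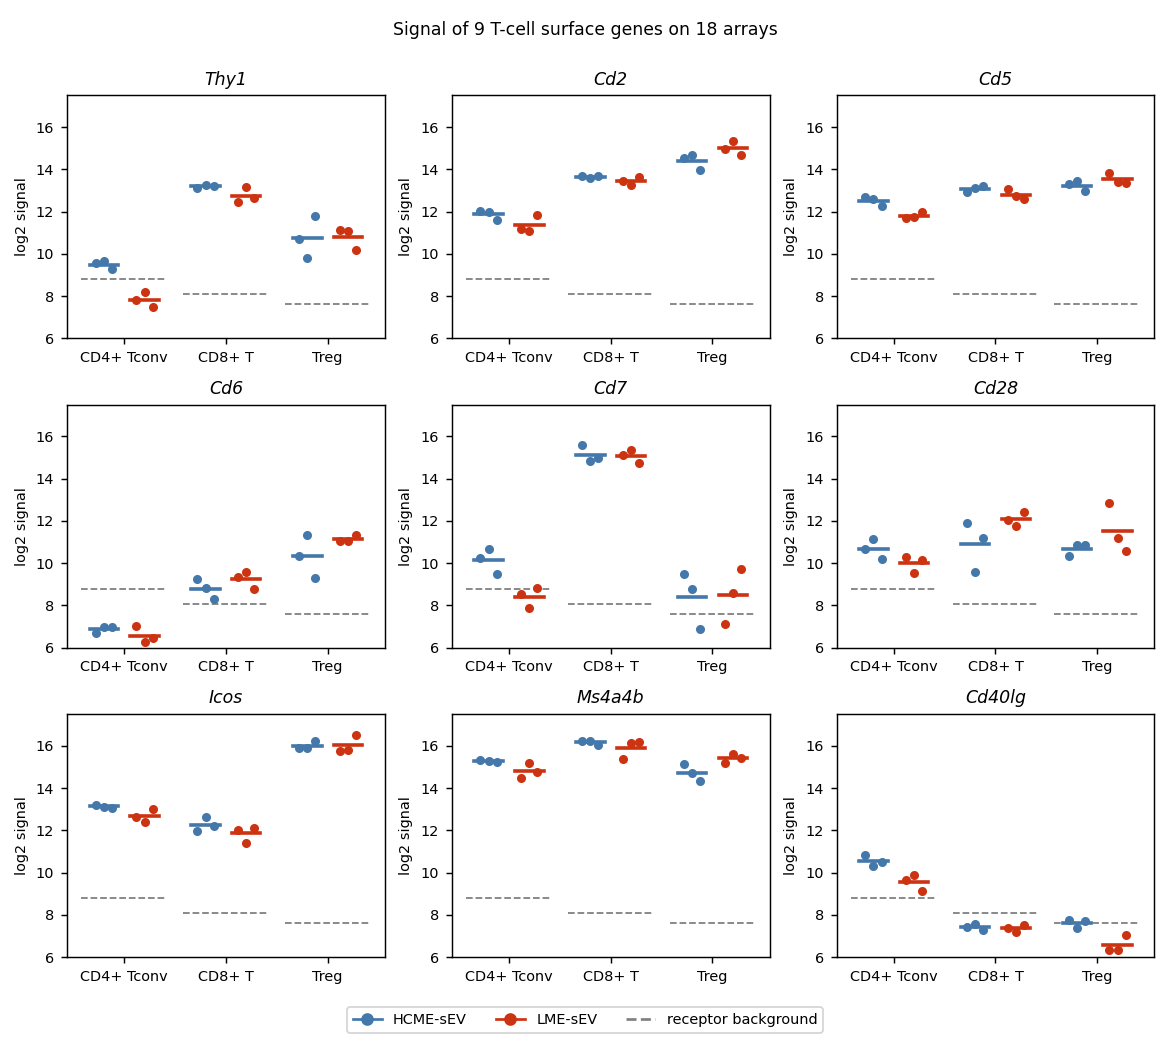
Log2 signal (y axis) of the 9 genes in CD4+ Tconv, CD8+ T cells and Treg (x axis), with 1 point per array, a bar at the mean of 3 arrays and a dashed line at the receptor background of the subset. *Thy1* and *Cd7* had LME means of 7.83 and 8.42 in CD4+ Tconv, under the dashed line at 8.80, and *Cd40lg* was near or under the line in CD8+ T cells and Treg.

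In CD4+ Tconv all 9 genes had a lower mean after LME-sEVs than after HCME-sEVs, except that *Icos* turned to 0.05 with quantile normalization and 0.02 with cyclic loess. The largest differences were those of *Cd7*, *Thy1* and *Cd40lg*. The median difference over the 9 was -0.68, against 0.07 over all 22206 probe sets and -0.31 over the 4843 above background, 71.6% of which had a lower LME mean. Calls used the study's thresholds (limma, adjusted p below 0.05 and a difference of over 1). The study analysed its arrays in the Transcriptome Analysis Console and reported genes past those thresholds in each of the subsets. The limma fits here are not that procedure, and their counts differ from the study's. *Thy1* and *Cd7* met the thresholds here, 2 of 9, where 0.941% of all probe sets were called lower and 0.0721% higher. Since the genes were chosen on these values, nothing is read from that count.
*Thy1* signals were 9.56, 9.65 and 9.27 on the HCME arrays and 7.81, 8.21 and 7.48 on the LME arrays. The lowest HCME array was 1.06 above the highest LME array. The means were 9.49 ± 0.20 and 7.83 ± 0.37 (SD, n = 3 each), a difference of -1.66 (SE 0.23). All 3 LME arrays lay under the receptor background of their own array (a mean of 9.13), so the full fold cannot be given. Set against that background the HCME mean was 1.28-fold higher. This is an estimate from 3 arrays as deposited, without an error, and not a firm lower limit.
*Cd7* stood at 10.26, 10.67 and 9.5 on the HCME arrays and at 8.54, 7.86 and 8.85 on the LME arrays, with no overlap. Its means of 10.14 ± 0.59 and 8.42 ± 0.51 (n = 3 each) differed by -1.73 (SE 0.33). All 3 LME arrays were under the receptor background of their own array here too. Set against the mean of that background, the HCME mean of *Cd7* was 2.01-fold higher, again an estimate without an error and on the deposited scaling only.
*Cd40lg*, the B-cell help ligand, was at 10.84, 10.33 and 10.49 after HCME-sEVs and at 9.64, 9.89 and 9.12 after LME-sEVs. All 6 arrays were above background and the groups were 0.44 apart. The means were 10.55 ± 0.26 and 9.55 ± 0.39 (n = 3 each), a difference of -1.0 (SE 0.24) that was not called.
The other scalings shrank the differences of the brighter members, which are given with them. *Cd5* had 12.71, 12.59 and 12.27 on the HCME arrays and 11.69, 11.72 and 11.97 on the LME arrays, which left a gap of 0.30 between the groups and a difference of -0.73 (SE 0.20), or -0.28 with quantile normalization and -0.25 with cyclic loess. *Icos* was at 13.22, 13.10 and 13.08 against 12.62, 12.38 and 13.03, a difference of -0.46 (SE 0.21). *Ms4a4b* was at 15.34, 15.28 and 15.25 against 14.48, 15.18 and 14.78, a difference of -0.48 (SE 0.22), or -0.15 and -0.10 with those scalings. The groups of *Icos* and *Ms4a4b* were separate by only 0.05 and 0.07, in each case because of 1 LME array close to the HCME arrays. In all, 6 members thus had every LME array below every HCME array, *Thy1*, *Cd7*, *Cd40lg*, *Cd5*, *Icos* and *Ms4a4b*. This held for 11.8% of all probe sets, and the opposite order for 11.6%, and nothing is read from the count of 6 of 9.
The groups of the other 3 overlapped. *Cd28* was at 10.65, 11.17 and 10.22 after HCME-sEVs and at 10.29, 9.54 and 10.16 after LME-sEVs, with a difference of -0.68 (SE 0.28), or -0.34 and -0.32. *Cd2* was at 12.04, 11.96 and 11.60 against 11.18, 11.09 and 11.86, with a difference of -0.49 (SE 0.25), or -0.07 and -0.03. LME array 3 of *Cd2* lay within the HCME range. *Cd6* stood under background throughout, at 6.68, 6.97 and 7.0 against 7.01, 6.26 and 6.44, so its difference of -0.31 (SE 0.23) compares signals that cannot be told from background.
The calls depended on single arrays and on the scaling. Neither gene was called without HCME array 1, without HCME array 2 or without LME array 1, and in these fits no probe set of the array was (limma, 0 of 22206, with 2572 to 3142 at an unadjusted p below 0.05). Without LME array 2, where 442 probe sets were called, *Cd40lg* was called beside them. *Thy1* alone was called without LME array 3 and after quantile normalization, where 70 and 30 probe sets were called. Beside these differences none of the listed chains of the CD3 complex was called. *Cd3e*, *Cd247*, *Cd3g* and *Cd3d* differed by -1.40, -0.88, -0.61 and -0.35 (limma adjusted p = 0.0828, 0.0943, 0.265 and 0.326), and *Cd4* by 0.06 (adjusted p = 0.902). Over 9 T-cell markers the mean level was 10.94 to 11.14 on the HCME arrays and 10.54 to 10.72 on the LME arrays. In bulk RNA, fewer cells of a type and less RNA per cell cannot be told apart, and the part of these levels in the differences was not tested.

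**Figure D2:**
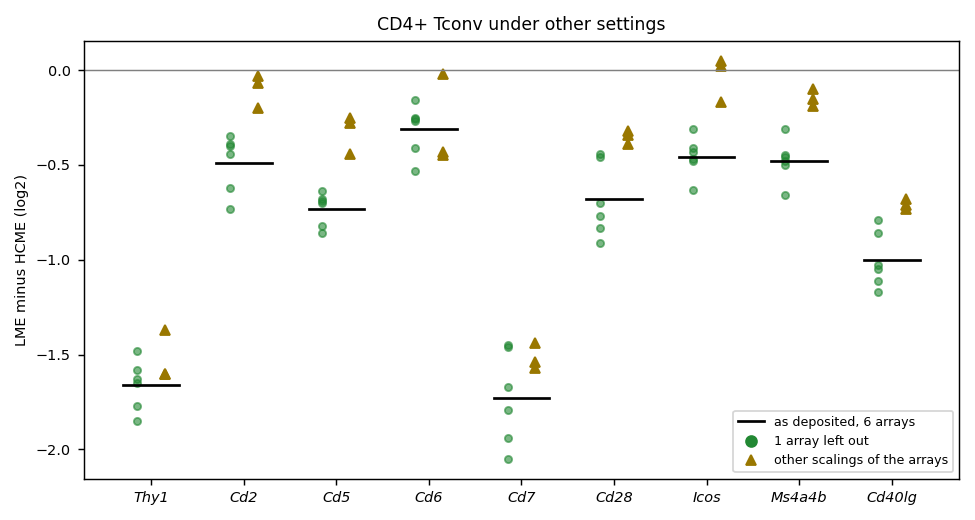
LME minus HCME (log2, y axis) of each gene (x axis) in CD4+ Tconv as deposited (bar), with 1 of the 6 arrays left out (circles) and with the arrays scaled by quantile normalization, cyclic loess or centring above background (triangles). *Thy1* stayed between -1.85 and -1.37 and *Cd7* between -2.05 and -1.44, whereas the triangles of *Icos* reached 0.05.

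In CD8+ T cells the HCME and LME arrays of every member overlapped. The median difference was -0.20, against 0.00 over all probe sets, with 7 lower and 2 higher means. None of the 9 was called, as 0.0% of all probe sets were (limma, 0 of 22206 in either direction, with 936 at an unadjusted p below 0.05, and 0 by the methods' t-test). Among all probe sets, 4.25% had every LME array below every HCME array and 4.35% every LME array above.
*Cd28* showed the largest difference. It was at 11.91, 9.60 and 11.19 on the HCME arrays and at 12.04, 11.77 and 12.41 on the LME arrays. HCME array 2 was low and HCME array 1 fell within the LME range. The difference of 1.17 (SE 0.57) between 10.90 ± 1.18 and 12.07 ± 0.32 (n = 3 each) became 0.52 without HCME array 2.
*Thy1* was at 13.12, 13.24 and 13.20 after HCME-sEVs and at 12.46, 13.18 and 12.62 after LME-sEVs, so LME arrays 1 and 3 were lower and LME array 2 was not. Its difference was -0.43 (SE 0.22). *Ms4a4b* stood at 16.23, 16.23 and 16.06 against 15.36, 16.12 and 16.18, and its difference of -0.29 (SE 0.25) became -0.02 without LME array 1, the low one. *Cd7*, near the top of the CD8+ signal scale, was at 15.58, 14.84 and 14.99 against 15.14, 15.34 and 14.76, a difference of -0.06 (SE 0.26). The remaining differences were -0.42 for *Icos*, -0.27 for *Cd5*, -0.20 for *Cd2*, 0.45 for *Cd6* and -0.06 for *Cd40lg*, the last under background.

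In Treg 8 of the 9 genes had a higher mean after LME-sEVs and *Cd40lg* was lower, a count that was 6 of 9 higher with quantile normalization or cyclic loess and 5 of 9 with centring above background. The median difference was 0.30, against -0.06 over all probe sets and 0.05 over the 7269 above background. None was called, as 0.0% of all probe sets were (limma, 0 of 22206 in either direction, with 1359 at an unadjusted p below 0.05, and 0 by the methods' t-test). Every LME array was above every HCME array for *Ms4a4b* and *Cd2* (4.72% of all probe sets) and below for *Cd40lg* (7.53%), and nothing is read from these counts.
*Ms4a4b* was at 15.13, 14.70 and 14.32 on the HCME arrays and at 15.21, 15.59 and 15.42 on the LME arrays. The groups were 0.08 apart. The means of 14.72 ± 0.41 and 15.41 ± 0.19 (n = 3 each) differed by 0.69 (SE 0.27). *Cd2* was at 14.53, 14.68 and 13.95 against 14.97, 15.33 and 14.69, a difference of 0.61 (SE 0.29) with a gap of 0.01 between the groups.
*Cd40lg* stood at 7.78, 7.40 and 7.71 after HCME-sEVs and at 6.34, 6.36 and 7.04 after LME-sEVs. All LME arrays and 1 HCME array were under the background of 7.62. The measured difference was -1.05 (SE 0.27), but the HCME mean of 7.63 was within 0.03 of the mean background of the LME arrays (7.60), so no fold is given.
*Cd28* was at 10.36, 10.85 and 10.85 against 12.85, 11.20 and 10.58. Its difference of 0.86 (SE 0.56) came mostly from LME array 1 and was 0.20 without that array. *Cd6* was at 10.36, 11.35 and 9.30 against 11.07, 11.04 and 11.33, a difference of 0.81 (SE 0.49). HCME array 3 was the low one, and the difference was 0.29 without it. *Thy1* ranged widely among the HCME arrays, at 10.72, 9.80 and 11.79 against 11.13, 11.07 and 10.20, and its means differed by 0.03 (SE 0.53). *Cd7* was as scattered, at 9.47, 8.78 and 6.90 against 7.12, 8.61 and 9.72, with a difference of 0.10 (SE 0.84). *Icos*, among the strongest signals in Treg, was at 16.00 ± 0.19 and 16.03 ± 0.42 (n = 3 each), and *Cd5* differed by 0.30 (SE 0.24).
Without Treg HCME array 3, the array that stood apart, the median difference was 0.29 and 7 of 9 means were higher. It was 0.64 without HCME array 1 and 0.20 without LME array 1. Without HCME array 3, *Cd2* differed by 0.39 and *Ms4a4b* by 0.49, whereas *Cd7* changed to -0.64 and *Thy1* to 0.54. The 9 T-cell markers measured, 8 of them above background, all had higher LME means in Treg as well, with a median difference of 0.44, and none was called. All 5 NK-cell markers measured had lower LME means (median -0.47), 1 of them above background and 0 called. Their mean level was 6.52 to 7.06 on HCME and 6.18 to 6.39 on LME arrays. Over all probe sets of Treg 56.6% had a lower LME mean, and 46.3% of those above background did, so nothing is read from these counts. The part of either list in the members' differences was not tested.

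**Figure D3:**
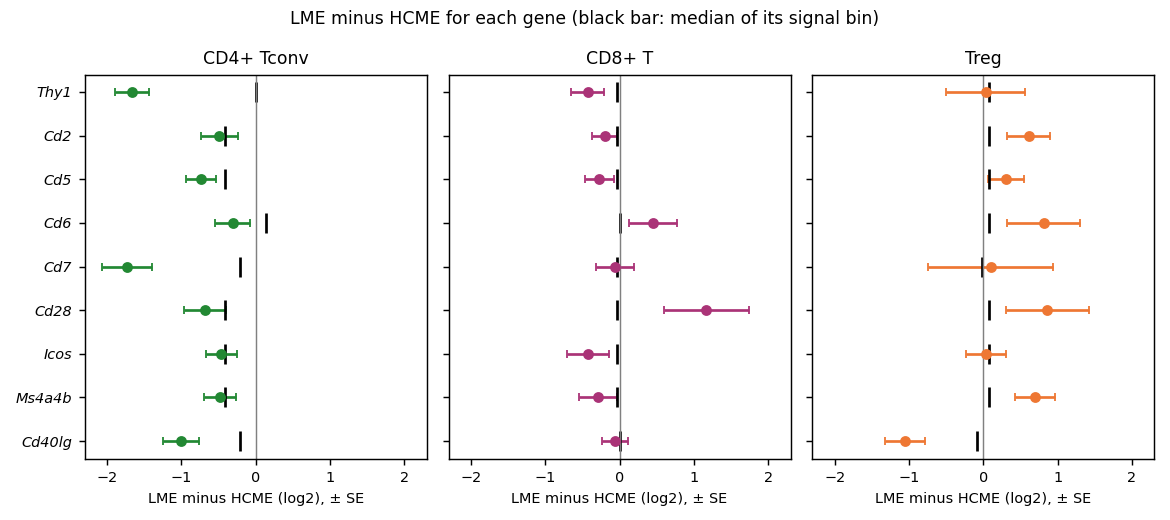
LME minus HCME (log2, x axis) for each gene (y axis) in the 3 subsets, with the SE from the limma fit on 3 arrays per group. The black bar is the median of all probe sets in the same of the 10 signal bins. In CD4+ Tconv the 9 points lie left of 0, in CD8+ T cells *Cd28* stands at 1.17, and in Treg *Cd40lg* stands at -1.05 while *Cd28* and *Cd6* stand at 0.86 and 0.81.

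The difference depended on the signal over all probe sets of CD4+ Tconv, so the members were also read within 10 bins of nearly equal size by mean signal. The median difference was 0.14 in bin 4, 0.00 in bin 8 and -0.41 in bin 10, which held the strongest signals and where 83.2% of probe sets had a lower LME mean. In Treg the same medians ran from -0.10 to 0.10 and in CD8+ T cells from -0.04 to 0.01. Against the median of its own bin, the measured difference of *Thy1* in CD4+ Tconv was -1.66 and that of *Cd7* -1.52, both taken from LME signals under background, and that of *Cd40lg* was -0.79. *Cd6*, under background, was at -0.46, *Cd5* at -0.32 and *Cd28* at -0.27. In the brightest bin 22.2% of probe sets had a lower difference than *Cd5* and 25.6% a lower one than *Cd28*. *Icos* (-0.04), *Ms4a4b* (-0.06) and *Cd2* (-0.08) were within 0.1 of the median of the brightest bin, so their lower signals were of the size seen among other bright probe sets. Within bins, 9 of 9 members were below the median in CD4+ Tconv and 7 of 9 in CD8+ T cells, and 6 of 9 were above it in Treg. By construction a bin has as many probe sets below its median as above it. The members were chosen with their differences known, so nothing is read from these counts.

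**Figure D4:**
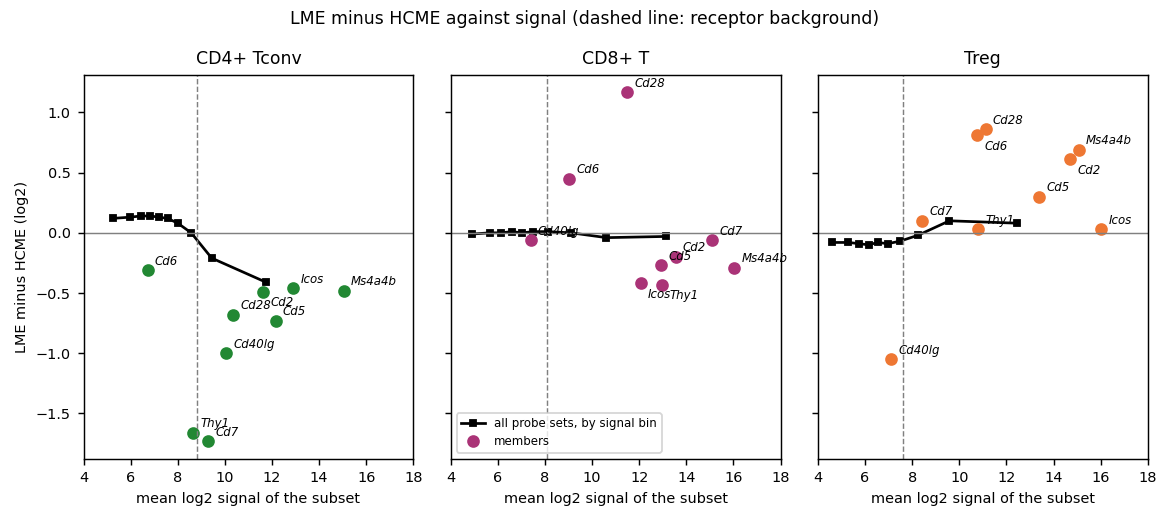
LME minus HCME (log2, y axis) against the mean log2 signal of the subset (x axis), with the median of each of 10 signal bins of all probe sets joined by a line, the 9 genes as circles and the receptor background as a dashed line. *Thy1* and *Cd7* lie at -1.66 and -1.73, far under the line in CD4+ Tconv, while *Icos*, *Ms4a4b* and *Cd2* lie within 0.1 of the median of their bin (-0.41).

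The ligands of these receptors were also read in the sorted T cells. Of 8 measured (*Cd80*, *Cd86*, *Icosl*, *Cd40*, *Cd48*, *Alcam*, *Cd72* and *Sectm1a*), 0 were called in any subset (limma), and the median difference was -0.02 in CD4+ Tconv, 0.08 in CD8+ T cells and -0.07 in Treg. *Cd48*, the CD2 ligand of the mouse, was at 14.32 ± 0.13 and 13.92 ± 0.44 in CD4+ Tconv (n = 3 each, adjusted p = 0.39). *Alcam*, which binds CD6, was at 10.17 ± 0.16 and 10.52 ± 0.14 (adjusted p = 0.354), with every LME array above every HCME array.
The inhibitory relatives of CD28 (*Ctla4*, *Pdcd1* and *Btla*) were not called either. In Treg *Pdcd1*, which encodes PD-1, was at 7.94 ± 0.45 after HCME-sEVs and 10.64 ± 0.83 after LME-sEVs (n = 3 each), a difference of 2.70 (SE 0.45, limma adjusted p = 0.756). *Ctla4*, which competes with CD28 for CD80 and CD86, was at 9.77 ± 1.70 and 12.21 ± 0.13, a difference of 2.44 (SE 0.77, adjusted p = 0.8). Both had every LME array above every HCME array, and both lie outside the members' range of -1.05 to 0.86. Along chromosome 1 the Treg differences were thus 0.86 for *Cd28*, 2.44 for *Ctla4* and 0.03 for *Icos*. In one fit of all 18 arrays *Pdcd1* was called in Treg, as were 26 of all 22206 probe sets. The study listed *Pdcd1* among the activation markers that were increased in Treg after LME-sEVs.
Of 18 genes listed for signalling under CD28 and ICOS 15 were measured, and in CD4+ Tconv 12 had a lower LME mean with a median of -0.32. Over all probe sets 42.8% had a lower LME mean there (median 0.07). Over those above background 71.6% did (median -0.31), so nothing is read from the count of 12. *Prkcq*, the protein kinase C theta recruited to CD28, fell from 14.84 ± 0.14 to 13.57 ± 0.26 (n = 3 each, difference -1.28, SE 0.21, limma adjusted p = 0.0358), and it was the 1 gene of the list called. *Grap2*, an adaptor, stood at 11.10 ± 0.46 and 9.68 ± 0.51 (difference -1.42, SE 0.30, adjusted p = 0.0505), and *Pik3r1*, a PI3-kinase subunit, at 10.39 ± 0.19 and 9.68 ± 0.23 (difference -0.71, adjusted p = 0.117). Called genes of this list numbered 0 after quantile normalization and 2 with array weights, where 30 and 475 of all probe sets were called. In CD8+ T cells and Treg 0 were called and the medians were -0.06 and 0.26. *Vav1*, an exchange factor downstream of CD28, was at 9.56 ± 2.15 and 12.03 ± 0.52 in Treg (n = 3 each, difference 2.47, SE 0.98, adjusted p = 0.8).
Among 12 measured kinases, adaptors and phosphatases that act with CD2, CD5 and CD6, 9 had a lower LME mean in CD4+ Tconv. The median was -0.53 and 0 were called. A lower LME mean was also found for 71.6% of all probe sets above background, so nothing is read from the count of 9. *Cbl*, a ubiquitin ligase that binds CD5, was at 10.95 ± 0.29 and 9.98 ± 0.43 (n = 3 each, adjusted p = 0.0894), and *Cd2ap*, an adaptor of the CD2 tail, was at 10.68 ± 0.33 and 9.78 ± 0.24 (adjusted p = 0.0846). *Lcp2*, the adaptor SLP-76, was at 10.45 ± 0.35 and 9.65 ± 0.59 (adjusted p = 0.19). The medians in CD8+ T cells and Treg were 0.01 and 0.16, with 0 called.
Of 7 measured relatives of *Ms4a4b* 0 were called in any subset, and their medians were -0.11, -0.24 and 0.16 in CD4+ Tconv, CD8+ T cells and Treg. *Ms4a6b* had the sign of *Ms4a4b*, with differences of -0.50 (SE 0.22, limma adjusted p = 0.253) in CD4+ Tconv and 0.40 (SE 0.24, adjusted p = 0.82) in Treg. Both genes were in the brightest signal bin. There 83.2% of probe sets had a lower LME mean in CD4+ Tconv and 42.5% in Treg, so nothing is read from the shared sign.

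With the mean of each subset removed, the members were only loosely alike over the 18 arrays. Among their 36 pairs the median Pearson r was 0.29, 28 were positive, the highest was 0.72 for *Cd2* and *Cd5* and the lowest was -0.31 for *Cd28* and *Icos*. The pairs share the arrays and their scaling. Of 5983 probe sets searched, those most like *Thy1* were *Stk38* (r = 0.88), *Prpf6* (0.85) and *Cdc42se1* (0.84), with differences of -0.84, -1.03 and -1.48 in CD4+ Tconv. Those most like *Cd28* were *Gnas* (r = 0.81), *Zbtb14* (0.80) and *Oga* (0.79), with differences of 0.73, 0.27 and 0.29 in CD8+ T cells. The treatment difference was left in the values and enters r. The differences of these probe sets therefore follow in part from how they were picked.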

How the data were processed

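Clariom S mouse arrays of 18 samples were used, 3 for each of 6 groups taken from the titles. The deposited values were log2 signals per probe set, which the authors had made from raw scans with the Transcriptome Analysis Console. The normalization method, annotation version and genome build are not given in the sources used here, and levels across subsets carry that limit. The RNA labelling kit differs between the labels and the methods. The platform annotation gave 1 symbol for 19572 of 22206 probe sets and none for 2634. Where a listed gene had several, the probe set with the highest mean was used. No column was left out, and 0 pairs of arrays were identical. Precision is limited by the number of arrays.

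The 6 arrays of a subset were fitted alone in limma 3.58.1 (R 4.3.3, lmFit then eBayes, no covariate) for LME minus HCME, and p-values of all 22206 probe sets were adjusted by the Benjamini-Hochberg method. Calls needed an adjusted p below 0.05 and a difference of over 1 in either direction. Separate animals or cultures are not stated for the replicates, so the p-values reflect only how far these samples spread, which may be technical. The fit was run on simulated data with independent noise for each probe set. The simulation held no shift along the signal scale like that of CD4+ Tconv, so it cannot speak to that shift. The members and lists were chosen with earlier results of these data known. All 9 members were named, with up to 3 genes per list and subset (called genes, then the largest differences with a higher mean above background, of which a part is printed). Also named were 5 T-cell markers, of which *Foxp3* was not measured. For *Thy1* and *Cd28* the 3 probe sets above background with the highest r over the arrays were named. *Ikzf2* was added after its values were seen. Alternatives were quantile normalization, cyclic loess, centring above background, a filter on background, limma's trend and robust options, all 18 arrays in one fit, array weights, the methods' t-test, the replicate number as a block, and each array left out. The methods name that unpaired t-test for figures, whereas for the arrays they name the Transcriptome Analysis Console.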

Additional observations from a re-analysis of the deposited data

Results flagged for a closer look

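*Ms4a4b* was flagged because its LME arrays lay on opposite sides of the HCME arrays in a pair of subsets. Every LME array was lower in CD4+ Tconv (difference -0.48) and every LME array was higher in Treg (difference 0.69), so the differences were 1.17 apart on the log2 scale. The difference between the subsets was not tested. The gaps between the groups were 0.07 and 0.08, and in CD4+ Tconv the difference lay within 0.1 of the median over probe sets of like signal.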

How the results depend on the processing

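In CD4+ Tconv the count of members called was 2. Over all probe sets 209 were called lower and 16 higher. The members called were 1 (*Thy1*) with quantile normalization (30 of all probe sets called), cyclic loess (36) and trend and robust options (49), and 0 with arrays centred above background (31), with all 18 arrays in one fit (11) and by the methods' t-test (0, with 3028 at an unadjusted p below 0.05). With each array left out members called ran from 0 to 3 and all calls from 0 to 442. With the replicate block the members called were 0, of 2 calls in all. In CD4+ Tconv the deviations of same-numbered arrays from their group means correlated from -0.101 to 0.144, so no pairing by number was seen. The filter on background gave 2 of 7 tested (*Cd7* and *Cd40lg*), since *Thy1* and *Cd6* did not pass it, and array weights gave 3, of 304 and 475 calls in all.

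The median difference of -0.68 became -0.34 (quantile), -0.32 (cyclic loess) and -0.39 with centring, which put the median of all probe sets at 0.36. *Icos* then stood at 0.05, 0.02 and -0.17 in the same order. The cause was not tested. In CD8+ T cells and Treg counts stayed at 0 under every alternative run. With each array left out the median ran from -0.23 to -0.09 in CD8+ T cells (-0.20 on all arrays, -0.09 without LME array 1) and from 0.20 to 0.64 in Treg (0.30 on all arrays). In Treg, members with a lower mean numbered 1 as deposited, 3 after quantile normalization or cyclic loess and 4 with centring. The narrow signal span of CD4+ Tconv and 3 arrays a group limit these results.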
